A study of Mus musculus with 15 samples.

Results

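The genes described here make the peptides that major histocompatibility complex (MHC) class I molecules display, and load them. They are the proteasome subunits Psmb8, Psmb9 and Psmb10, the peptide transporter genes Tap1 and Tap2, the loading factor Tapbp, the trimming peptidase Erap1, the class I light chain B2m and the regulator Nlrc5. All 9 were found among 19938 genes by an exact match of the symbol in the array annotation. A single probe set stood for each gene, the brightest one for Nlrc5, which has 19. Tapbp also has 2 probe sets annotated with more than 1 symbol, which were left out. Values are log2 intensities, so that a difference of 1 is a doubling. Each array read total RNA of a single whole thymus, from females aged 5 weeks of strain NOD.LCMV or strain NOD.Ln82-LCMV. The 15 mice fell into NOD.LCMV given gp33 (n = 3), NOD.LCMV given the control peptide (n = 3), NOD.Ln82-LCMV given gp33 (n = 5) and NOD.Ln82-LCMV given the control peptide (n = 4). Each mouse had 0.5 µg of peptide by vein and its thymus was taken 2 h later. The peptide gp33 comes from the lymphocytic choriomeningitis virus glycoprotein, and the control peptide also binds the class I molecule Db. The labels give the gp33 injection as a way to start negative selection, and the series is about how NOD mice delete CD8 T cells. Both strains carry LCMV in their names, but the labels describe neither that element nor the Ln82 segment, nor any batch. A batch that followed strain or peptide therefore cannot be told apart from them.

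Cells cut their own proteins in the proteasome and move the pieces into the endoplasmic reticulum, where they are trimmed and fitted into class I molecules. Interferon-gamma switches many cells from the constitutive catalytic subunits to Psmb8, Psmb9 and Psmb10, which form the immunoproteasome. In the thymus, the peptides shown by cortical epithelium, medullary epithelium and dendritic cells decide which CD8 T cells survive.

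Of the 9 genes, 5 lie on mouse chromosome 17 (Tap1, Tap2, Tapbp, Psmb8 and Psmb9), 2 on chromosome 8 (Psmb10 and Nlrc5), and B2m and Erap1 on chromosomes 2 and 13. RefSeq promoter windows of build GRCm38.p6, each 300 bases, matched 7 of the 9 genes. Tap1 and Psmb9 are shown through a shared interval, because they stood next to each other and yet differed in the results below. Their starts are 225 bases apart on opposite strands and their windows share 275 bases. Erap1 and B2m are shown because they were the windows with an interferon-type match, although Erap1 was called after gp33 and B2m was not. Capitals mark matches to 5 motifs, read on both strands with no overlapping match. The windows are chr17:34187306-34187605, plus strand for Tap1, chr13:74639603-74639902, plus strand for Erap1, and chr2:122147437-122147736, plus strand for B2m.
Tap1: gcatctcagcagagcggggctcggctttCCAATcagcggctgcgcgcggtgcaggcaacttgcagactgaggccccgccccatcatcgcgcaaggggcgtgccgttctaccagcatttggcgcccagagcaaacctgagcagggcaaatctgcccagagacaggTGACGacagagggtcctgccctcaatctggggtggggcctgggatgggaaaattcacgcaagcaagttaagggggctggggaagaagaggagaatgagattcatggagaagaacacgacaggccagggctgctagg
Erap1: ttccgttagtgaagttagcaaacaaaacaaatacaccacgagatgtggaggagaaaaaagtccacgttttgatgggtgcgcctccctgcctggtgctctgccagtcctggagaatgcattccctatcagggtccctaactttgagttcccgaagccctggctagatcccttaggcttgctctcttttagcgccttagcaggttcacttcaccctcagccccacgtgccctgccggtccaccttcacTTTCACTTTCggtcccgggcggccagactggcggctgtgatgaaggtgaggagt
B2m: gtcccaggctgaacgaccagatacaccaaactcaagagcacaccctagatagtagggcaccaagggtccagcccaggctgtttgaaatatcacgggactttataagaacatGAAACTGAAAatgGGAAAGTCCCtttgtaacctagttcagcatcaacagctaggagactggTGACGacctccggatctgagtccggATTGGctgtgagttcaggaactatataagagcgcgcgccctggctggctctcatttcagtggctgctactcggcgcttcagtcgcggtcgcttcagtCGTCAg
The Tap1 window held CCAAT, a box found in many promoters, at -222 and TGACG, the CRE half-site, at -86, counted from the Tap1 start. In the Erap1 window the capitals are the interferon-type motif GAAANNGAAA, on the minus strand at -4. The B2m window held that motif at -139 and a kappaB-type motif (GGGNNTTTCC) at -126. It also held TGACG at -78 and 45, and CCAAT at -53. The gamma-activated-site motif (TTCNNNGAA) was found in the Psmb8 window, and none of the 5 motifs in that of Psmb10. Among 32851 RefSeq promoter windows of that length, the interferon-type motif was in 3.44%, the gamma-activated-site motif in 8.3%, the kappaB-type in 1.63%, CCAAT in 37.4% and TGACG in 20.8%. A match describes letters and shows no binding.

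The arrays were alike in scale, with medians between 7.59 and 7.67 and correlations within a group of at least 0.990 across probe sets. At most 5.91% of values were identical between any 2 arrays, and precision is limited by how few arrays there are. The design text of the series calls the mice of a group biological replicates. NOD.LCMV gp33 replicate 1 was the highest of its group for 8 of the 9 genes and replicate 2 the lowest for 7. In whole tissue, fewer cells of a type and less RNA per cell cannot be told apart. The plot of single mice shows all 9 genes.

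**Figure D1:**
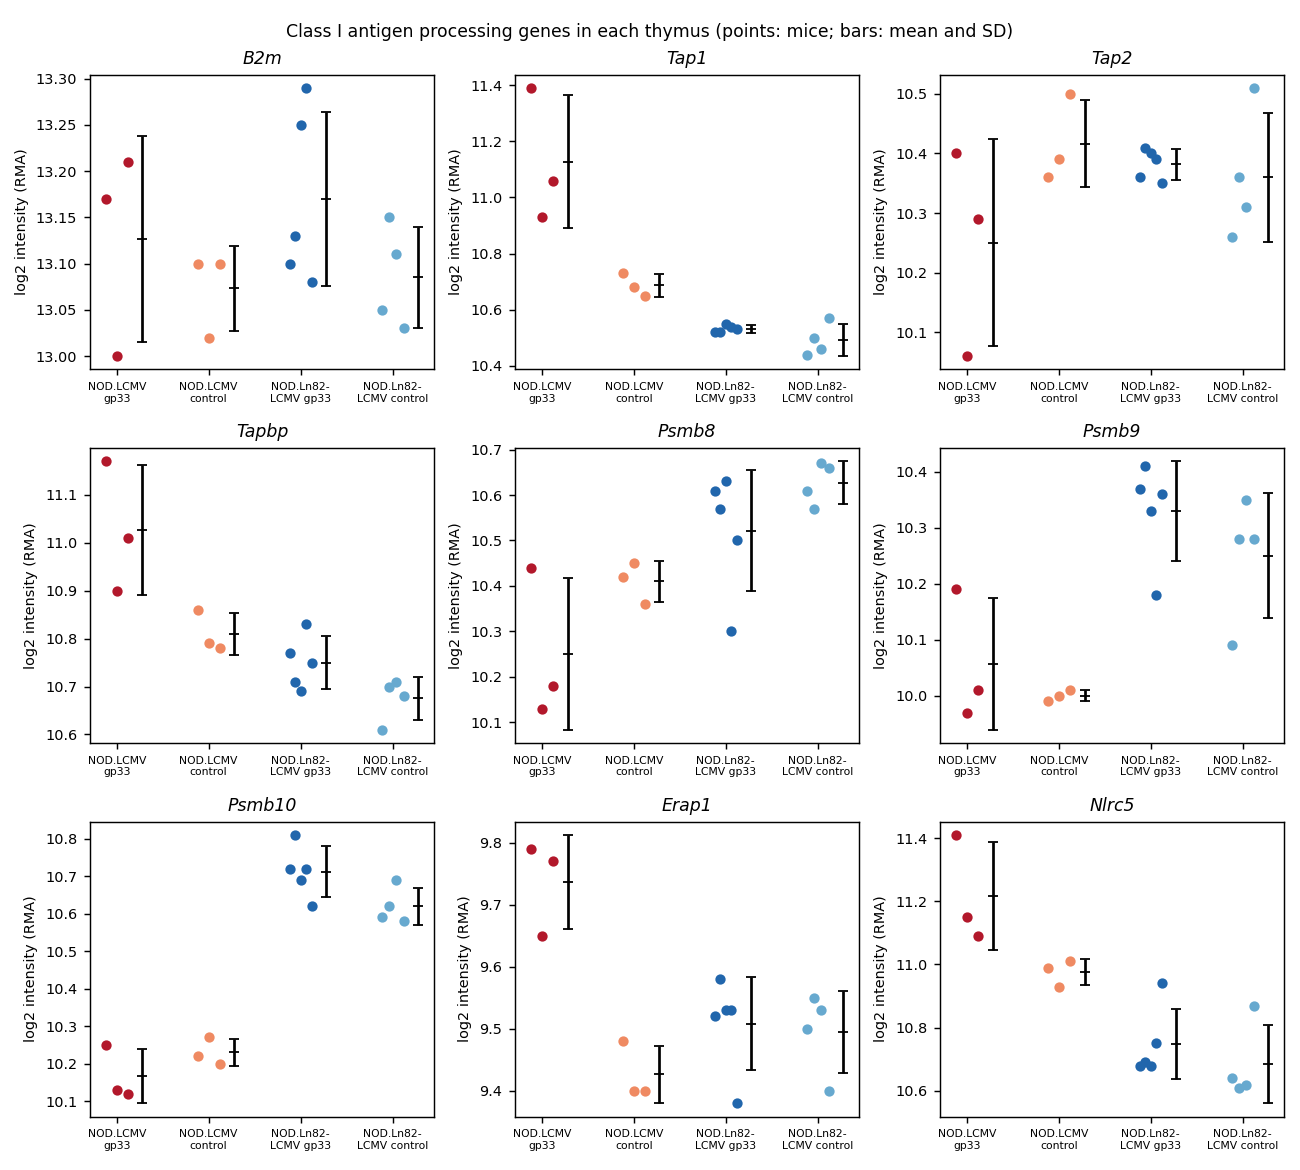
Log2 intensity of the 9 genes in each thymus, with 1 point per mouse and the mean and SD of each group (n = 3, 3, 5 and 4 from left to right). Tap1, Tapbp and Erap1 lie higher in every NOD.LCMV mouse given gp33 than in every NOD.LCMV mouse given the control peptide, and Psmb10 lies lower in every NOD.LCMV mouse than in every NOD.Ln82-LCMV mouse.

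The first question was which of these genes responded to gp33 in each strain. In NOD.LCMV thymus, Tap1, Erap1 and Tapbp rose, and none fell. That is 3 of 9 genes called higher in limma (adjusted p under 0.05), beside 7.29% of all genes called higher and 12.5% called lower. The median difference of the 9 genes was 0.06, against -0.03 over all genes. In NOD.Ln82-LCMV thymus, limma called 0 of the 9 genes and 0 reached an unadjusted p of 0.05, where 0.00502% of all genes were called and 5.97% reached it. Groups did not overlap for 4 of 9 genes in NOD.LCMV, beside 32.9% of all genes, and for 0 of 9 in NOD.Ln82-LCMV, beside 1.51%.

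The immunoproteasome subunits were not called in either strain. Psmb8, which takes the place of Psmb5, had 10.44, 10.13 and 10.18 in NOD.LCMV mice given gp33, against 10.42, 10.45 and 10.36 with the control peptide. One gp33 mouse lay among the controls and the other 2 below them, and the difference was -0.16 ± 0.08 (SE; limma adjusted p = 0.241). Without NOD.LCMV gp33 replicate 1 it was -0.255 and called lower (adjusted p = 0.0418). Psmb9, which takes the place of Psmb6, had 10.19, 9.97 and 10.01 in NOD.LCMV mice given gp33, against 9.99 to 10.01 with the control peptide. The groups overlapped, with a difference of 0.06 ± 0.07 and an adjusted p of 0.724. Psmb10, which takes the place of Psmb7, had 10.25, 10.13 and 10.12 with gp33 and 10.22, 10.27 and 10.20 with the control peptide. This was -0.06 ± 0.05 (adjusted p = 0.519).

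Tap1 is a subunit of the transporter that carries peptides into the endoplasmic reticulum. With 1 probe set per gene, it showed the largest rise of the 9 genes. The mean over all Nlrc5 probe sets rose by 0.46. Tap1 had 11.39, 10.93 and 11.06 in NOD.LCMV mice given gp33, against 10.73, 10.68 and 10.65 in those given the control peptide. The lowest gp33 mouse stood above the highest control mouse. The difference was 0.44 ± 0.08, or 1.36-fold (limma adjusted p = 0.00119), and 0.31 to 0.54 when each array was left out in turn. In NOD.Ln82-LCMV, Tap1 lay between 10.52 and 10.55 with gp33 and between 10.44 and 10.57 with the control peptide, so the ranges overlapped. Its partner Tap2, the other subunit, had 10.40, 10.06 and 10.29 with gp33 in NOD.LCMV, against 10.36, 10.39 and 10.50 with the control peptide. The groups overlapped and the difference was -0.17 ± 0.08 (adjusted p = 0.165). Without NOD.LCMV gp33 replicate 1 it was -0.24 and called lower (adjusted p = 0.0445).

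Tapbp encodes tapasin, which holds empty class I molecules at the transporter. It had 11.17, 10.90 and 11.01 in NOD.LCMV mice given gp33, against 10.86, 10.79 and 10.78 with the control peptide. Every gp33 mouse was above every control mouse, by 0.22 ± 0.06 on average, or 1.16-fold (limma adjusted p = 0.0187). The call was lost without gp33 replicate 1 (0.145, adjusted p = 0.09997), control replicate 2 (0.21, 0.0648) or control replicate 3 (0.20, 0.0649), and with only the groups compared in the fit (adjusted p = 0.0770). NOD.Ln82-LCMV mice had 10.69 to 10.83 with gp33 and 10.61 to 10.71 with the control peptide, which overlap.

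Erap1 trims peptides in the endoplasmic reticulum to the length that class I molecules hold. Its values were 9.79, 9.65 and 9.77 in NOD.LCMV mice given gp33, against 9.48, 9.40 and 9.40 with the control peptide. The groups stood apart by 0.31 ± 0.06, or 1.24-fold (limma adjusted p = 0.00125). This call held without each of the 15 arrays, at 0.28 to 0.35. In NOD.Ln82-LCMV mice, Erap1 lay at 9.38 to 9.58 with gp33 and 9.40 to 9.55 with the control peptide, with overlapping groups.

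B2m, the light chain that every class I molecule needs, was not called. It had 13.17, 13.00 and 13.21 in NOD.LCMV mice given gp33, against 13.10, 13.02 and 13.10 with the control peptide. The groups overlapped, with a difference of 0.05 ± 0.07 (95% interval -0.09 to 0.19, adjusted p = 0.707).

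Nlrc5, a transactivator of class I genes, had 11.41, 11.15 and 11.09 in NOD.LCMV mice given gp33, against 10.99, 10.93 and 11.01 with the control peptide. The groups did not overlap, and the difference of 0.24 ± 0.09 was not called (limma adjusted p = 0.0774). It was called without NOD.LCMV gp33 replicate 3 (0.30, adjusted p = 0.0447), NOD.Ln82-LCMV gp33 replicate 5 (0.24, 0.0440) or NOD.Ln82-LCMV control replicate 4 (0.24, 0.0486). Without NOD.LCMV gp33 replicate 1 it was 0.14 and not called. The brightest of its 19 probe sets stood for the gene here. With the mean over all of them the difference was 0.46 and called (adjusted p = 0.00417), as the next paragraph shows set by set.

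All 19 probe sets of Nlrc5 were higher with gp33 in NOD.LCMV, by 0.12 to 0.88 with a median of 0.42. They read the same gene and are not replicates. When every probe set was tested on its own, 10 of the 19 were called higher, beside 4.98% of all probe sets. In NOD.Ln82-LCMV the differences ran from -0.04 to 0.13, limma called 0, and 0 reached an unadjusted p of 0.05. The mean over the 19 sets was 9.78, 9.25 and 9.36 in NOD.LCMV mice given gp33, against 9.12, 8.99 and 8.92 with the control peptide. It was 8.65 to 8.75 in NOD.Ln82-LCMV mice given gp33, against 8.60 to 8.78 with the control peptide. Every NOD.LCMV mouse thus lay above every NOD.Ln82-LCMV mouse, whichever peptide it had. The number called higher in NOD.LCMV was 7 to 12 when each array was left out, and 7 without gp33 replicate 1.

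**Figure D2:**
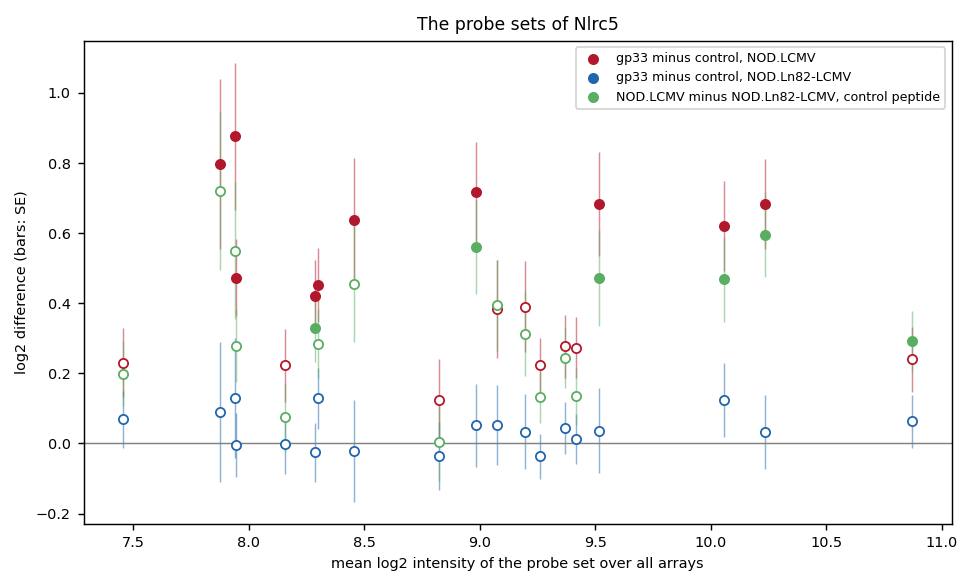
Log2 difference of each of the 19 Nlrc5 probe sets (bars: SE) against its mean log2 intensity over the 15 arrays, with filled points called. Plotted are the gp33 response in each strain and NOD.LCMV minus NOD.Ln82-LCMV with the control peptide. That strain difference lies above 0 for all 19 sets, 6 of them called. The gp33 response in NOD.LCMV lies above 0 for all 19 sets, the response in NOD.Ln82-LCMV lies near 0, and the brightest set, which stands for the gene elsewhere, has one of the smaller responses.

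Next came the test of whether the response differed between the strains. Tap1 and Erap1 responded more in NOD.LCMV than in NOD.Ln82-LCMV. These were 2 of 9 genes called higher, beside 4.46% of all genes called higher and 4.26% called lower, where limma called 0 of the 9 and 1 reached an unadjusted p of 0.05 (Psmb10). For Tap1 the responses differed by 0.40 ± 0.11 (limma adjusted p = 0.0276). Removal of 1 control mouse ended that call, namely NOD.LCMV replicate 2 (0.40, adjusted p = 0.0657) or 3 (0.38, 0.0684), or NOD.Ln82-LCMV replicate 4 (0.37, 0.0534). It also ended when every probe set was tested on its own (adjusted p = 0.0539). For Erap1 the responses differed by 0.30 ± 0.08 (adjusted p = 0.0220). The call was lost without NOD.LCMV gp33 replicate 1 (0.27, adjusted p = 0.0574), gp33 replicate 3 (0.28, 0.0534), control replicate 2 (0.28, 0.0621) or control replicate 3 (0.28, 0.0569). The difference for Tapbp was 0.14 (adjusted p = 0.350) and for Nlrc5 0.18 (0.464). Without NOD.LCMV gp33 replicate 1 these were 0.07 and 0.08, and without NOD.Ln82-LCMV control replicate 4 the value for Nlrc5 was 0.12. Of the 19 Nlrc5 probe sets, all had a larger difference in NOD.LCMV, and 1 was called, beside 2.65% of all probe sets. That count was 6 without NOD.LCMV gp33 replicate 2. It was 0 without NOD.LCMV gp33 replicate 1, any 1 of the 3 NOD.LCMV controls, NOD.Ln82-LCMV gp33 replicate 1, 2, 3 or 5, or NOD.Ln82-LCMV control replicate 1 or 4. The plot of differences sets the strains side by side.

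**Figure D3:**
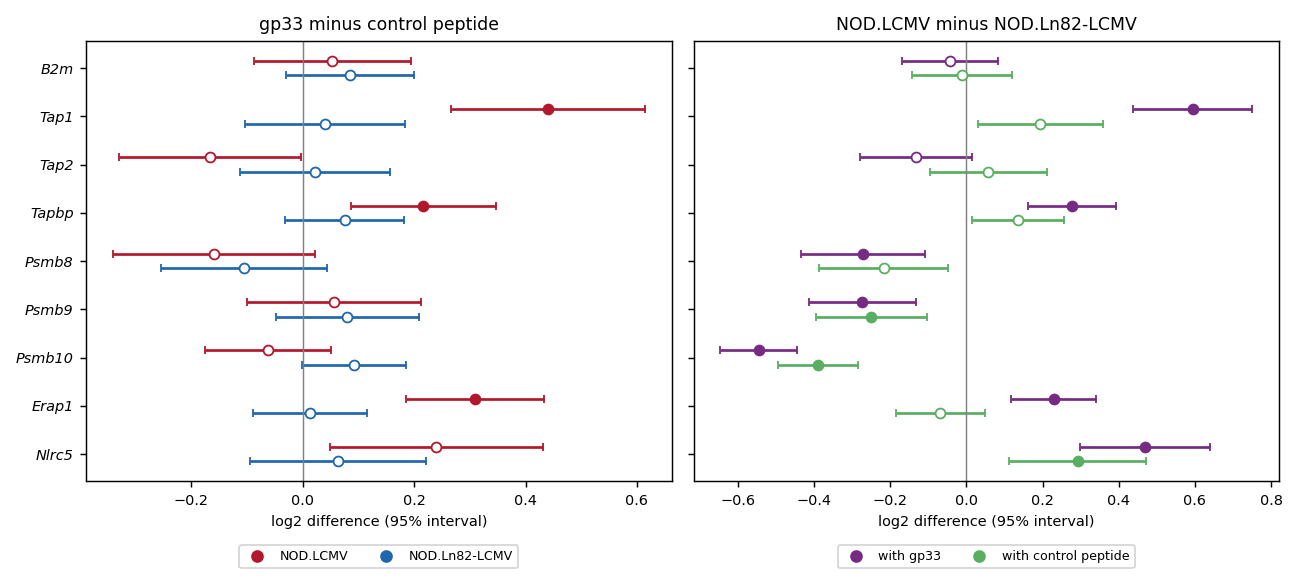
Log2 differences of the 9 genes with 95% intervals, gp33 minus control peptide in each strain (left) and NOD.LCMV minus NOD.Ln82-LCMV with each peptide (right); filled points were called. On the left, Tap1, Tapbp and Erap1 are called in NOD.LCMV and no gene in NOD.Ln82-LCMV. On the right, Tap1, Tapbp and Nlrc5 lie above 0 with both peptides and the 3 Psmb genes below 0.

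The strains also differed, some genes being higher and others lower in NOD.LCMV. With gp33, Tap1, Nlrc5, Tapbp and Erap1 were higher and Psmb10, Psmb9 and Psmb8 lower in NOD.LCMV than in NOD.Ln82-LCMV. These are 4 of 9 genes called higher, beside 10.2% of all genes, and 3 called lower, beside 16.8%. Groups did not overlap for 5 of the 9 genes, beside 26.9% of all genes. In mice given the control peptide, Nlrc5 was higher and Psmb10 and Psmb9 were lower in NOD.LCMV. That is 1 of 9 called higher, beside 4.77%, and 2 of 9 called lower, beside 5.54%. Groups did not overlap for 6 of the 9, beside 19.6% of all genes. The comparisons with gp33 share their NOD.LCMV mice with the response above.

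Psmb10 had the largest strain difference of the 9 genes under the control peptide. It had 10.25, 10.13 and 10.12 in NOD.LCMV mice given gp33, against 10.72, 10.81, 10.69, 10.72 and 10.62 in NOD.Ln82-LCMV mice given gp33. Its values with the control peptide were 10.22, 10.27 and 10.20 in NOD.LCMV mice, against 10.59, 10.62, 10.69 and 10.58 in NOD.Ln82-LCMV mice. All 6 NOD.LCMV mice were below all 9 NOD.Ln82-LCMV mice. The differences were -0.55 ± 0.05 with gp33, or 0.685-fold (limma adjusted p = 6.47e-07), and -0.39 ± 0.05 with the control peptide (adjusted p = 0.000292).

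Psmb9 was lower in NOD.LCMV by -0.27 ± 0.07 with gp33 (limma adjusted p = 0.00522). With gp33 it had 9.97 to 10.19 in NOD.LCMV mice and 10.18 to 10.41 in NOD.Ln82-LCMV mice, which overlap. Given the control peptide, it had 9.99 to 10.01 in NOD.LCMV mice, against 10.09, 10.28, 10.35 and 10.28 in NOD.Ln82-LCMV mice. The groups did not overlap, and the difference was -0.25 ± 0.07 (adjusted p = 0.0298). That call was lost without any 1 of NOD.LCMV control replicates 1, 2 and 3 or NOD.Ln82-LCMV control replicates 2, 3 and 4, at -0.255 to -0.22 and adjusted p of 0.0685 to 0.0999. Psmb8 with gp33 had 10.13 to 10.44 in NOD.LCMV mice and 10.30 to 10.63 in NOD.Ln82-LCMV mice, which overlap. It was called lower in NOD.LCMV with gp33 by -0.27 ± 0.08 (adjusted p = 0.0139). This was lost without NOD.LCMV gp33 replicate 2 (-0.21, adjusted p = 0.0931) or replicate 3 (-0.24, 0.0696), and with only the groups compared (0.0520). With the control peptide Psmb8 had 10.42, 10.45 and 10.36 in NOD.LCMV mice, against 10.61, 10.57, 10.67 and 10.66 in NOD.Ln82-LCMV mice. These groups did not overlap, but the difference of -0.22 was not called (adjusted p = 0.104). It was called with only the groups compared (0.0271), with array weights (0.0348) and without NOD.Ln82-LCMV gp33 replicate 4 (0.0452).

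Tap1 was higher in NOD.LCMV mice given gp33 than in NOD.Ln82-LCMV mice given gp33 by 0.59 ± 0.07, or 1.51-fold (limma adjusted p = 1.9e-05). Under the control peptide its difference of 0.19 was not called (adjusted p = 0.134), although the lowest NOD.LCMV mouse, at 10.65, lay above the highest NOD.Ln82-LCMV mouse, at 10.57. It was called without NOD.LCMV gp33 replicate 1 (adjusted p = 0.0131), with array weights (0.0343) and with only the groups compared (0.0437). Tap1 and Psmb9 share their promoter interval, and their difference within each array is given as a description without a test, since the pair was chosen after its values were seen. Tap1 minus Psmb9 was 0.96 to 1.20 in NOD.LCMV mice given gp33, against 0.64 to 0.74 in NOD.LCMV mice given the control peptide, with no overlap. It was 0.11 to 0.36 in NOD.Ln82-LCMV mice given gp33, against 0.11 to 0.35 with the control peptide, which overlap. A level of one gene is not comparable with that of another on these arrays, only its change.

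Nlrc5 was higher in NOD.LCMV with either peptide. With gp33 the difference was 0.47 ± 0.08 (limma adjusted p = 0.000403), and 18 of the 19 probe sets were called higher, beside 11.1% of all probe sets. With the control peptide it had 10.99, 10.93 and 11.01 in NOD.LCMV mice, against 10.64, 10.61, 10.62 and 10.87 in NOD.Ln82-LCMV mice. The groups did not overlap, and NOD.Ln82-LCMV control replicate 4 stood apart from the rest of its group. The difference was 0.29 ± 0.08 (adjusted p = 0.0384). This call was lost without any 1 of NOD.LCMV control replicates 1, 2 and 3 or NOD.Ln82-LCMV control replicates 1, 2 and 3, at 0.27 to 0.32 and adjusted p of 0.0633 to 0.141. Of the 19 probe sets, 6 were called higher with the control peptide, beside 6.33% of all probe sets, and all 19 differences were above 0. The count was 14 without NOD.LCMV gp33 replicate 1, 1 when NOD.LCMV control replicate 1 or, among the NOD.Ln82-LCMV controls, replicate 3 was left out, 2 without NOD.LCMV control replicate 2, and 3 without NOD.Ln82-LCMV gp33 replicate 1, 2 or 3 or NOD.Ln82-LCMV control replicate 2.

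Tapbp and Erap1 differed between the strains with gp33, by 0.28 ± 0.05 (limma adjusted p = 0.00122) and 0.23 ± 0.05 (adjusted p = 0.00360). With the control peptide the differences were 0.14 for Tapbp (adjusted p = 0.166) and -0.07 for Erap1, not called. Tap2 differed by -0.13 with gp33 (adjusted p = 0.195), and by -0.21, called lower, without NOD.LCMV gp33 replicate 1 (0.0482). B2m differed by -0.04 with gp33 (adjusted p = 0.697) and -0.01 with the control peptide.

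The constitutive partners of the immunoproteasome subunits were set beside them. Psmb6, the partner of Psmb9, was lower in NOD.LCMV by -0.36 ± 0.05 with gp33 and by -0.37 ± 0.06 with the control peptide (limma adjusted p = 0.000114 and 0.000952). Psmb5, the partner of Psmb8, differed by -0.10 and -0.20, neither called. The second was called without NOD.LCMV gp33 replicate 2 (adjusted p = 0.0450), NOD.Ln82-LCMV gp33 replicate 4 (0.0389) or NOD.Ln82-LCMV control replicate 2 (-0.24, 0.0246). It was also called without the dimmest genes (0.0423), with a variance trend (0.0370), with array weights (0.0109) and with the gene span trend taken out (0.0399). Psmb7, the partner of Psmb10, differed by 0.11 and -0.04, neither called, while Psmb10 differed by -0.55 and -0.39. After median centring Psmb7 was called higher with gp33 (0.16, adjusted p = 0.0352). The activator subunits Psme1 and Psme2, whose ring opens the proteasome, were lower in NOD.LCMV with the control peptide by -0.39 ± 0.06 and -0.35 ± 0.05 (adjusted p = 0.00130 and 0.000838). With gp33 they differed by -0.22 and 0.03 (limma adjusted p = 0.0151 and 0.771 with every probe set tested on its own). The gp33 call of Psme1 was lost without NOD.LCMV gp33 replicate 2 (-0.18, adjusted p = 0.0701). In the list of activators and assembly factors, 4 of 8 genes were lower with the control peptide and 0 higher, beside 5.54% of all genes lower and 4.77% higher.

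Other genes of the pathway responded to gp33 in NOD.LCMV, and in NOD.Ln82-LCMV limma called 0 genes of the 8 pathway lists, with at most 2 genes of a list at an unadjusted p of 0.05. Each list count in NOD.LCMV stands beside 7.29% of all genes called higher and 12.5% called lower. Among activators and assembly factors 2 of 8 rose and 0 fell. Psme2 had 11.90, 11.83 and 11.86 in NOD.LCMV mice given gp33, against 11.51, 11.36 and 11.38 with the control peptide, a rise of 0.45 ± 0.06 (limma adjusted p = 3.78e-05). Psme3 rose by 0.27 ± 0.04, and Psme1 showed 0.19 ± 0.07 (adjusted p = 0.0531). Psme1 was called without NOD.LCMV gp33 replicate 2 (0.24, adjusted p = 0.0399), NOD.Ln82-LCMV gp33 replicate 4 (0.0280) or NOD.Ln82-LCMV control replicate 1 (0.0399). It was called too under 6 other settings, a second quantile normalization, median centring, no dimmest genes, a variance trend, array weights and no span trend, at 0.19 to 0.24 and adjusted p of 0.00612 to 0.0488. Of 4 constitutive and thymic catalytic subunits 1 fell. This was Psmb11, the subunit of cortical epithelium, which had 7.93, 8.02 and 7.97 in NOD.LCMV mice given gp33, against 8.56, 8.45 and 8.51 with the control peptide (-0.53 ± 0.14, adjusted p = 0.0111). Its responses differed between the strains by -0.75 ± 0.18 (adjusted p = 0.0146).

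Of 7 measured peptidases 2 rose and 1 fell, beside 7.29% and 12.5% of all genes. Lap3, a leucine aminopeptidase, had 10.44 to 10.49 in NOD.LCMV mice given gp33, against 9.79 to 9.88 with the control peptide, a rise of 0.64 ± 0.09. Thop1 was called at 0.24 ± 0.08, and not without gp33 replicate 2 (0.17, adjusted p = 0.168), control replicate 1 (0.21, 0.127) or control replicate 2 (0.23, 0.0972), with only the groups compared (0.0510) or with every probe set on its own (0.0579). Npepps was called at -0.15 ± 0.05, and not without any 1 of the 6 NOD.LCMV arrays (adjusted p of 0.0547 to 0.0891). Median centring (-0.12, adjusted p = 0.190) and taking out the span trend (-0.09, 0.193) ended that call as well. Of 8 loading chaperones 2 rose, Hspa5 by 0.49 ± 0.06 and Calr by 0.18 ± 0.05. The call of Calr was lost without gp33 replicate 1 (0.17, adjusted p = 0.0524) or control replicate 2 (0.17, 0.0534).

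Among class I heavy chains and related molecules, 8 of 18 could be measured by a probe set of their own. None rose and 5 fell in NOD.LCMV with gp33, with a median difference of -0.32, against -0.03 over all genes. Mr1, which presents metabolites to mucosal T cells, had 11.13, 10.38 and 10.86 in NOD.LCMV mice given gp33, against 11.59, 11.58 and 11.52 with the control peptide (-0.77 ± 0.14, limma adjusted p = 0.000854). Cd1d1, which presents lipids, fell by 0.56 on the log2 scale, H2-T24 by 0.49 and H2-Q2 by 0.38. H2-Q2 has near-identical neighbours, so its reading is uncertain. H2-K1 and H2-D1, the main class I chains, are not analysed here.

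Regulators of the pathway also responded. In the interferon-gamma list 5 of 8 measured genes rose and 1 fell, with a median difference of 0.66. Ifng itself had 9.15, 9.53 and 8.78 in NOD.LCMV mice given gp33, against 6.70, 6.60 and 6.75 with the control peptide (2.47 ± 0.14, limma adjusted p = 1.22e-08). The groups stood far apart. Irf1, an interferon-regulated activator of class I genes, had 12.31, 12.21 and 12.16 with gp33, against 10.53, 10.50 and 10.54 with the control peptide (1.70 ± 0.05, adjusted p = 1.47e-11). Jak2, a kinase of the interferon-gamma receptor, rose by 1.03 ± 0.04 and Socs1, which inhibits it, by 0.96 ± 0.11. Jak1, another kinase in that list, had 12.04 to 12.13 in NOD.LCMV mice given gp33, against 12.26 to 12.33 with the control peptide. Of 12 measured transcription factors of class I genes 5 rose and 3 fell, among the risers Irf8 (1.52 ± 0.09), Rela (0.36 ± 0.05) and Irf2 (0.34 ± 0.04). Rfxank went down, with 9.75 to 9.85 in NOD.LCMV mice given gp33, against 10.09 to 10.17 with the control peptide. So did Rfxap, with 8.43 to 8.54 against 8.70 to 8.76. In NOD.Ln82-LCMV, Ifng showed 0.17 ± 0.12 and Irf1 0.08 ± 0.04, neither called. The responses differed between the strains by 2.30 ± 0.19 for Ifng and 1.63 ± 0.06 for Irf1 (adjusted p = 1.33e-06 and 1.03e-09).

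**Figure D4:**
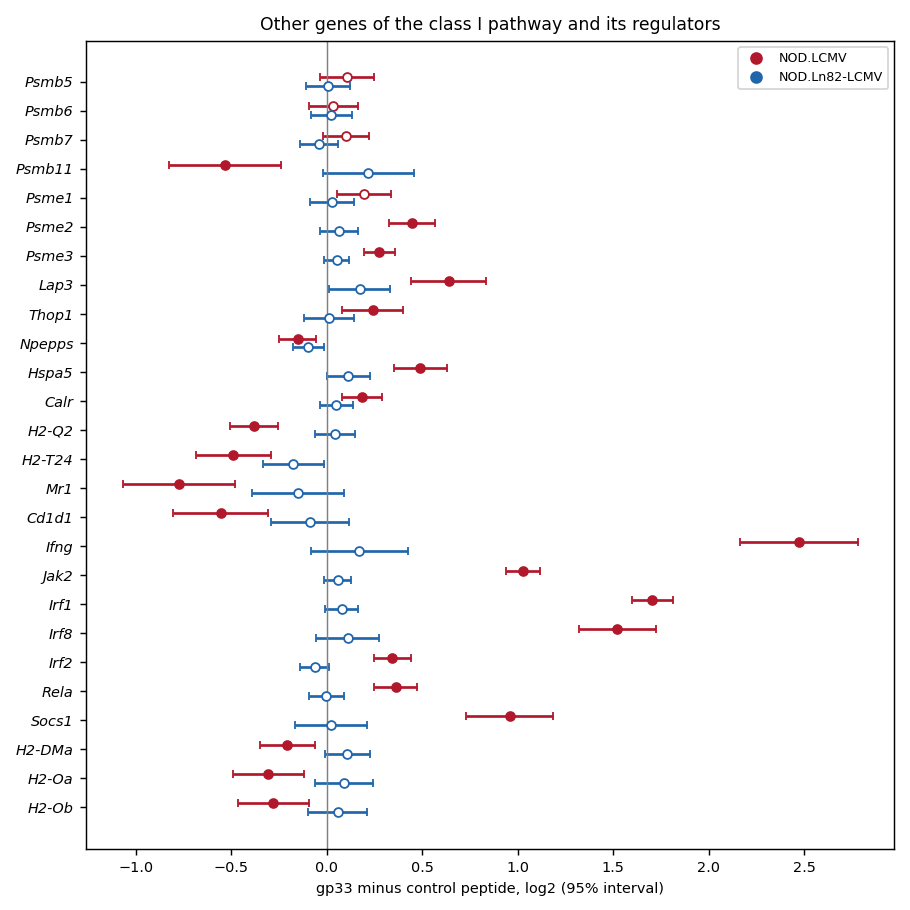
Log2 difference, gp33 minus control peptide, of other genes of the class I pathway and its regulators, with 95% intervals in NOD.LCMV and NOD.Ln82-LCMV; filled points were called. Ifng, Irf1 and Irf8 stand farthest to the right in NOD.LCMV, Mr1 stands farthest to the left, and no gene is called in NOD.Ln82-LCMV.

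Markers of several cell types moved with gp33 in NOD.LCMV. The mean of 5 granulocyte markers was 7.75 to 8.20 in NOD.LCMV mice given gp33, against 6.84 to 7.15 with the control peptide, and 4 of the 5 rose. The mean of 6 cortical epithelium markers, Psmb11 among them, was 10.10 to 10.21 with gp33, against 10.42 to 10.48 with the control peptide, and 3 of the 6 fell. Of 8 measured markers of double-positive thymocytes, which label the tissue as thymus with means of 10.68 to 11.70 in all groups, 5 fell. Of 9 markers of dendritic cells and macrophages 4 fell. These counts in NOD.LCMV stand beside 7.29% of all genes called higher and 12.5% called lower. With gp33, 5 of 6 cortical and 6 of 9 dendritic cell and macrophage markers were lower in NOD.LCMV than in NOD.Ln82-LCMV. This stood beside 16.8% of all genes lower and 10.2% higher. Lower too were 5 of 8 double-positive thymocyte, 2 of 5 mature thymocyte, 2 of 6 medullary epithelium and 2 of 4 measured B cell markers. So were 2 of 5 markers each of NK cells, endothelium and fibroblasts, and 1 of 3 measured red cell markers. Granulocyte markers went the other way, with 4 of 5 higher. No adipocyte or skeletal muscle marker was called. The part of these cells in the results above was not tested.

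Across the 15 arrays, the genes most like the mean profile of the 9 genes were Parp9 (r = 0.86), Samhd1 (0.85), Insm1 (0.85), Ncf1 (0.85), Cdhr1 (0.83), Skint2 (0.83), Tnfsf8 (0.83) and Slc34a2 (0.83). With each group's mean taken off, they were Mx2 (0.93), Il2rb (0.93), Parp9 (0.92), Il15 (0.92), Dhx58 (0.92), Ddx58 (0.91), Greb1 (0.91) and Tnfrsf11b (0.90). These values describe 15 arrays in 4 groups and carry no test. A correlation ignores the size of a change, so genes that barely vary can rank high. In the first ranking, group means ran only from 4.81 to 4.83 for Skint2, 8.30 to 8.37 for Insm1 and 7.29 to 7.39 for Cdhr1. Limma called none of these genes in any comparison. With group means taken off, the 9 genes varied mainly among NOD.LCMV mice given gp33. Their median deviations were 0.14, -0.12 and -0.05 in replicates 1, 2 and 3 of that group, and -0.045 to 0.035 in the other groups. How far the second ranking rests on the mice of that group was not tested. The 9 genes themselves followed the mean profile unevenly, at 0.14 for Psmb8 to 0.63 for B2m. With group means taken off the range was 0.41 for Nlrc5 to 0.92 for Tap1. Each of the 9 genes is part of the mean it was set against, which raises these values. They are therefore not comparable with those of the genes named above.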

How the data were processed

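Each of 15 thymus samples has 35556 deposited log2 values, 1 for each probe set of the Affymetrix Mouse Gene 1.0 ST array. The authors made them with RMA in Affymetrix Expression Console 1.1, per the submitters' processing notes, and no further normalization was applied. The 21789 probe sets with exactly 1 symbol in the platform annotation were kept, and the brightest of a gene stood for it (19938 genes). Group means of all 15 arrays were fitted together (limma 3.58.1, R 4.3.3), and the 5 comparisons were contrasts of them, NOD.LCMV first where strains were compared. Calls rest on two-sided moderated tests, with p-values adjusted by Benjamini-Hochberg across the 19938 genes and a threshold of 0.05. Separate fits on all 35556 probe sets served the Nlrc5 probe sets. The model was tested on simulated data.

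The 9 genes, the lists and the tests were chosen with earlier results of these data known. Of each pathway list up to 4 called genes with the smallest adjusted p in NOD.LCMV were named, and Psmb5, Psmb6, Psmb7, Psmb11, Psme1, Psme2, Irf1 and Ifng whatever they showed. Jak1, Rfxank and Rfxap were added afterwards, because that rule named only risers in their lists. Other lists covered mature thymocytes, medullary epithelium, B and NK cells, endothelium, fibroblasts, adipocytes, red cells and skeletal muscle. Promoter windows and gene spans are RefSeq's (GRCm38.p6). The results were recomputed after quantile normalization or median centring, without the dimmest genes, on means over probe sets, with a variance trend or weights per array, on only the groups compared, with a replicate block, with a 1.5-fold minimum, and without each array. A trend on gene span and every probe set on its own were added after seeing the data.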

Additional observations from a re-analysis of the deposited data

Results flagged for a closer look

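In a small group, a value was singled out when its gap to the nearest mouse took up most of the range of its group, which chance does in about 1 of 20 groups. The rule covered each of the 9 genes in the NOD.Ln82-LCMV groups (n = 5 and 4), so such a value can arise by chance. NOD.LCMV groups (n = 3) were not screened. Nlrc5 in NOD.Ln82-LCMV mice given gp33 had 1 such value, 10.94 in replicate 5, where the other mice had 10.68 to 10.75. Among control NOD.Ln82-LCMV mice, Nlrc5 was 10.87 in replicate 4, where the others had 10.61 to 10.64. Over the mean of its 19 probe sets these mice had 8.67 and 8.78, within or next to the 8.60 to 8.75 of the other NOD.Ln82-LCMV mice.

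The response to gp33 differed between the strains for Tap1, by 0.40 on the log2 scale, and for Erap1, by 0.30. Tests of the difference itself in limma gave adjusted p of 0.0276 and 0.0220. The call of Tap1 was lost without any 1 of 3 arrays and that of Erap1 without any 1 of 4. All 3 NOD.LCMV mice given gp33 exceeded all NOD.LCMV control mice in both genes, where these groups did not overlap for 32.9% of all genes. That describes NOD.LCMV alone and not a difference between the strains.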

How the results depend on the processing

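Leaving out each array in turn gave 2 to 4 genes called in the NOD.LCMV response, 0 to 0 in NOD.Ln82-LCMV, 0 to 2 for the difference between responses, 6 to 8 for the strain difference with gp33 and 1 to 4 with the control peptide. The median differences of the 9 genes were 0.03 to 0.12, 0.03 to 0.07, -0.05 to 0.03, -0.09 to 0.02 and -0.03 to 0.02 in the same order. A limit of 1.5-fold left 0 genes called in the NOD.LCMV response, 0 in the difference between responses, 1 (Tap1) in the strain difference with gp33 and 0 with the control peptide. Testing every probe set on its own left 1 gene called in the difference between responses. Array weights and only the groups compared each called 5 genes in the strain difference with the control peptide, against 3.

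Leaving out arrays also turned signs near 0 of differences that were not called. The ranges were -0.01 to 0.1 for Psmb9 in the NOD.LCMV response. In NOD.Ln82-LCMV they were -0.0113 to 0.072 for Tap2, -0.0187 to 0.045 for Erap1, -0.04 to 0.0375 for Psmb5, -0.01 to 0.055 for Psmb6 and -0.01 to 0.065 for Psme1. In the difference between responses they were -0.0733 to 0.0317 for B2m, -0.1495 to 0.0055 for Psmb8 and -0.0217 to 0.0543 for Psmb6, and -0.09 to 0.03 for Psmb9. Between the strains they were -0.085 to 0.02 for B2m with gp33, and -0.03 to 0.015 for B2m and -0.0433 to 0.0533 for Psmb11 with the control peptide.

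Other signs that turned belonged to differences that were not called. Median centring gave -0.0065 for Erap1 and -0.0145 for Psmb5 in the NOD.Ln82-LCMV response, 0.0212 for B2m and 0.0295 for Psmb9 in the difference between responses, and 0.0087 for B2m in the strain difference with gp33. Array weights gave -0.0109 for Psmb5, and 0.0165 for B2m and 0.0566 for Psmb9 in the difference between responses. Taking out the gene span trend gave 0.0077 for Psmb9 in that difference, and 0.0004 and 0.001 for B2m in the strain differences. The mean over probe sets gave 0.0092 for Irf1 between the strains with the control peptide. The cause was not tested. Nlrc5 was called in the NOD.LCMV response after median centring (0.27), with array weights (0.32) and without the span trend (0.30), and was no longer called between the strains with the control peptide after a second quantile normalization (0.29, adjusted p = 0.0577) or without the span trend (0.25, 0.0764). Tapbp was called in the difference between responses with array weights (0.23, 0.0371).

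NOD.Ln82-LCMV mice share replicate numbers in the labels. The deviations of mice with 1 number correlated at only -0.226 to 0.117 over the 4 pairs. Such a check across all genes cannot exclude a tie between paired mice that moved few genes. With the replicate block, 0 genes were called in the NOD.Ln82-LCMV response, the median was 0.05 and Psmb5 was -0.0125. NOD.LCMV mice carry no such numbers. Dim genes are compressed by background to an unknown degree.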

Other observations

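The class II presentation genes, which feed the other arm of antigen display, were counted in the same fits. In NOD.LCMV 0 of 10 measured genes rose and 3 fell with gp33, with a median difference of 0.02. These were H2-DMa, H2-Oa and H2-Ob, the genes of the peptide exchange factor DM and its inhibitor DO, at -0.21, -0.31 and -0.28. These counts stand beside 7.29% of all genes called higher and 12.5% lower. The calls depended on single arrays and on other settings. Median centring ended all 3 (adjusted p of 0.0569 to 0.109), as did taking out the span trend (0.0759 to 0.140). H2-DMa was also lost after a second quantile normalization (0.0820), with only the groups compared (0.0578) and with every probe set on its own (0.0662), H2-Oa with only the groups compared (0.0813), and H2-Ob with every probe set on its own (0.0599). H2-DMa was lost without any 1 of NOD.LCMV gp33 replicates 2 and 3, NOD.LCMV control replicates 1, 2 and 3, NOD.Ln82-LCMV gp33 replicates 1 and 2 and NOD.Ln82-LCMV control replicates 2 and 3 (adjusted p of 0.0510 to 0.174). H2-Oa was lost without NOD.LCMV gp33 replicates 1 or 2 or control replicates 1 or 2 (0.0509 to 0.106; -0.19 without gp33 replicate 2), and H2-Ob without NOD.LCMV gp33 replicates 2 or 3 or control replicates 1 or 2 (0.0639 to 0.160). Between the strains, 6 of 10 class II genes were lower in NOD.LCMV with gp33, beside 16.8% of all genes, and 2 with the control peptide, beside 5.54%.

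Markers of other cells gave these counts in the NOD.LCMV response, beside the same shares of all genes: of 5 measured mature single-positive thymocyte markers 3 fell, of 6 medullary epithelium markers 1 rose, of 5 NK cell markers 1 rose, of 5 endothelial markers 2 fell and of 5 fibroblast markers 1 fell. No B cell, adipocyte, red cell or skeletal muscle marker was called in limma, and none reached an unadjusted p of 0.05. Genes in 5 equal bins of gene span had median responses of -0.02 to -0.05 in NOD.LCMV and median strain differences with the control peptide of 0.01, -0.01, 0.00, 0.02 and 0.04, short to long.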
